A study of Homo sapiens with 6 samples.

Results

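The genes described here are the well-expressed members of the ZNF family, the largest named set of zinc finger protein genes in the human genome. A gene was a member where its name in the count table was ZNF followed by a number and at most 1 letter, and where its counts averaged at least 10 CPM (counts scaled to the library total) over all 6 libraries. ZNF675, ZNF280A and ZNF296 were left out by the rule. Of 53712 gene names in the table, 553 were ZNF names, 326 of these reached the floor, and 324 were members after ZNF675 and ZNF296 had been removed (ZNF280A lay under the floor). Members were thus chosen by their mean level over both groups, which is therefore a description. The 3 members just inside the floor were ZNF385A at 10.1 CPM, ZNF800 at 10.2 CPM and ZNF600 at 10.2 CPM. The 3 ZNF genes just outside it were ZNF223 at 9.93 CPM, ZNF792 at 9.91 CPM and ZNF501 at 9.84 CPM.

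RNA was sequenced from H9 cells, a human embryonic stem cell line in long use, kept in RSeT medium, which holds pluripotent cells in a naive-like state. UNC1999 cells received 2.5 µM UNC1999 (3 libraries), which blocks EZH2 and EZH1, the catalytic subunits of the Polycomb repressive complex PRC2 that methylate histone H3. UNC2400 cells, to which they were compared, received 2.5 µM UNC2400, an N-methylated analog of low activity (3 libraries). Both groups also received 10 nM DZNep, which blocks S-adenosylhomocysteine hydrolase, and 5 nM trichostatin A (TSA), a histone deacetylase inhibitor, and all were collected after 48 h. No library without DZNep and TSA, and none without either UNC compound, was analysed here, and all cells were of 1 line.

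ZNF proteins carry tandem zinc fingers of the cysteine-histidine type, most of which read DNA sequence. Many also carry a KRAB domain, which recruits the corepressor TRIM28 and, through it, the histone methyltransferase SETDB1 and heterochromatin proteins, and in early embryos and embryonic stem cells such factors silence transposable elements and guard imprinted loci. KRAB genes multiplied by tandem duplication, so that in humans many lie side by side on chromosome 19, and other ZNF proteins work as activators, as parts of chromatin complexes or in RNA metabolism.

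The 6 libraries held between 29699441 and 42345448 counts, and members took 1.26%, 1.40% and 1.34% of them in UNC1999 libraries 1 to 3, against 1.14%, 1.15% and 1.16% in UNC2400 libraries 1 to 3. The summed share was higher in every UNC1999 library. All 8 embryonic stem cell markers examined averaged at least 10 CPM. Their summed level was 6955 to 7509 CPM in UNC1999 libraries and 8237 to 8444 CPM in UNC2400 libraries. The markers were not alike. TDGF1 was higher in UNC1999 libraries (656 to 718 CPM against 629 to 648 CPM), and SOX2 overlapped. TERF1 was lower (499 to 608 CPM against 982 to 1011 CPM), and POU5F1, NANOG, LIN28A, DPPA4 and L1TD1 also lay lower without overlap. Of 8 fibroblast or feeder markers 3 averaged at least 10 CPM, namely COL1A1, COL1A2 and THY1. The 8 summed to 181 to 205 CPM in UNC1999 libraries and 268 to 293 CPM in UNC2400 libraries. COL3A1, DCN, LUM and PDGFRB stood between 0 and 0.92 CPM in every library, and POSTN between 2.7 and 7.0 CPM. Neural markers (2 of 5 at 10 CPM or more) summed to 347 to 362 CPM in UNC1999 libraries and 363 to 377 CPM in UNC2400 libraries. Most of this sum was TUBB3, at 329.1 to 344.2 CPM in UNC1999 libraries and 337.5 to 352.5 CPM in UNC2400 libraries. DCX was at 15.8 to 16.5 CPM and 23.3 to 26.2 CPM. PAX6 reached at most 1.75 CPM, and SOX1 and NEUROD1 at most 0.09 CPM. None of 6 trophoblast and none of 4 endoderm markers averaged 10 CPM; their sums were 2.09 to 2.67 CPM and 1.25 to 1.84 CPM in UNC1999 libraries, against 1.79 to 2.60 CPM and 0.620 to 0.874 CPM in UNC2400 libraries, and VGLL1 was at 0. The part of these shifts in the results was not tested. In bulk RNA, fewer cells of a type and less RNA per cell cannot be told apart. Whether the replicates were separate cultures is not stated in the labels. The p-values therefore reflect only how far these libraries vary, which may be technical variation.

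ZNF genes were more often higher than lower in UNC1999 cells, by small amounts. Of 324 members, 207 were higher (63.9%), 28 were lower (8.64%) and 89 passed in neither direction, by edgeR's quasi-likelihood test with Benjamini-Hochberg adjustment over the 17596 genes tested and a threshold of 0.05. Among all genes tested, 26.8% were higher and 25.9% were lower. The median log2 fold change of members was 0.25, a fold of 1.19, with quartiles of 0.04 and 0.41, against 0.02 for all genes tested. Among the 9816 tested genes at 10 CPM or more, 31.1% were higher and 33.9% lower, with a median log2 fold change of -0.01. With offsets for exon length, genomic span and GC content, 156 members were higher and 29 were lower, and the members' median was 0.15. Such offsets also remove any group difference that follows these properties, whatever its source. The family was proposed with earlier results of these data known, so its counts are a description.

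All UNC1999 values lay above all UNC2400 values in 206 members (63.6%) and below them in 36 (11.1%), and the groups overlapped in 82. Over all genes tested the shares were 30.9% above and 29.7% below. Of the 207 members called higher, 196 had no overlap, as had all 28 called lower. The changes were mostly modest. Only ZNF641 among the members was higher by more than 2-fold, where 3.56% of all genes tested were. Of the others called higher, 162 rose by at most 0.5 on the log2 scale, and 45 members, ZNF641 included, rose by more than that. Of those called lower, 4 fell by more than 0.5. The median log2 fold change of members called higher was 0.36, and of members called lower -0.28; for all genes so called these were 0.42 and -0.43. A floor on the mean can favour genes that are high in 1 group. With the floor met in both group means, 305 members remained, of which 191 were higher, 27 were lower and 87 were neither, with a median of 0.24; 1 member, ZNF718, was under the floor in UNC1999 cells alone and 18 in UNC2400 cells alone.

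**Figure D1:**
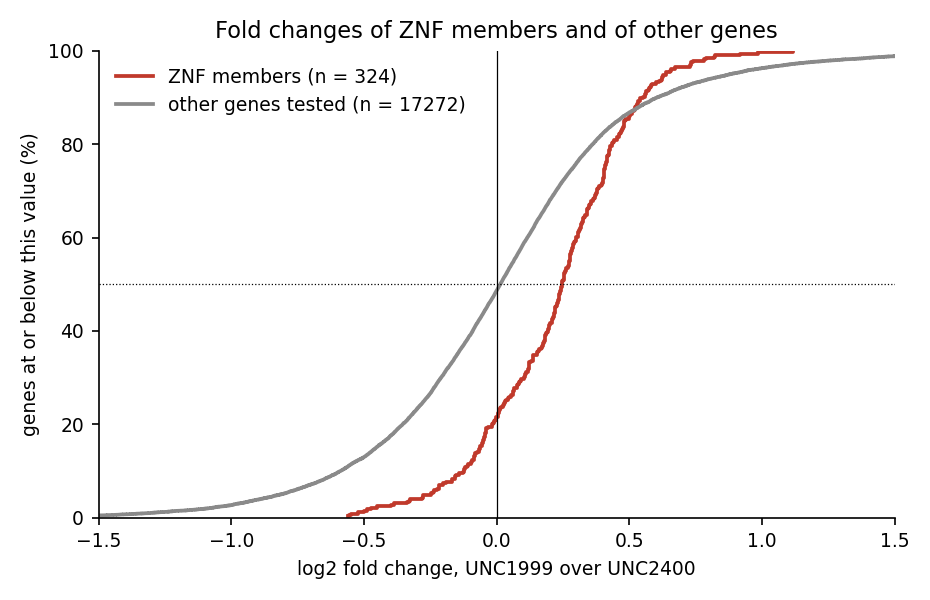
Cumulative share of genes (y axis, percent) by log2 fold change of UNC1999 over UNC2400 (x axis) for the 324 ZNF members and the 17272 other genes tested. The members' curve crosses the dotted median line at 0.25 and that of the other genes at 0.01; above about 0.5 the other genes' curve lies to the right.

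The shift was present in each UNC1999 library and was smallest in replicate 1. Relative to the mean of the UNC2400 libraries, the median member stood at 0.17, 0.28 and 0.27 on the log2 scale in UNC1999 replicates 1, 2 and 3, while the median of all genes stood at 0.004, 0.030 and 0.009. Of 324 members, 241, 266 and 252 lay above that mean in the UNC1999 libraries, and 161, 153 and 173 in UNC2400 replicates 1, 2 and 3, which make up the mean. Mitochondrially encoded genes took 5.71%, 6.26% and 5.74% of counts in UNC1999 libraries and 6.55%, 5.33% and 4.49% in UNC2400 libraries, so the groups overlapped in this share.

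**Figure D2:**
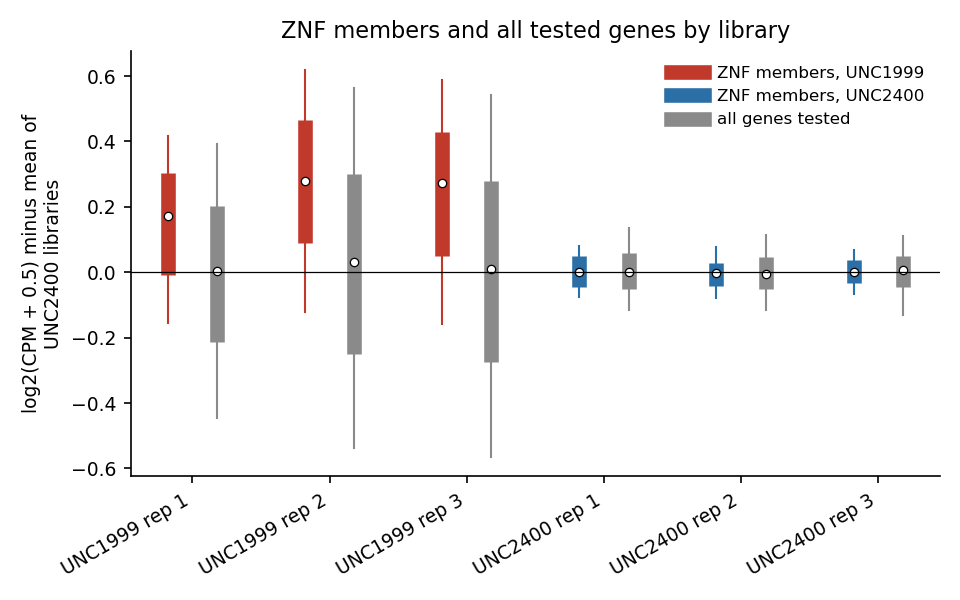
Log2 level of the members relative to the mean of the 3 UNC2400 libraries (y axis), by library (x axis, UNC1999 libraries left), with all genes tested in grey; circles are medians, thick bars quartiles and thin lines the percentiles 10 to 90. The members' medians are 0.17, 0.28 and 0.27 in UNC1999 replicates 1 to 3 and near 0 in the UNC2400 libraries.

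ZNF641 had the largest rise. Its level, in CPM scaled by TMM library factors as are all levels below, was 12.5, 16.2 and 16.2 in UNC1999 libraries, against 6.35, 7.52 and 6.73 in UNC2400 libraries. The lowest UNC1999 library thus lay above the highest UNC2400 library, and the log2 fold change was 1.12 ± 0.11 (SE; edgeR adjusted p = 4.635e-07). ZNF473, whose protein takes part in 3′ end processing of replication-dependent histone transcripts with the U7 ribonucleoprotein, had 19.1, 24.3 and 28.9 CPM in UNC1999 libraries and 12.6, 11.6 and 12.4 CPM in UNC2400 libraries. Its groups did not overlap, although the UNC1999 libraries spread widely, and it rose by 0.98 ± 0.11 on the log2 scale (SE; edgeR adjusted p = 2.185e-06). ZNF518B encodes a partner of the histone methyltransferase EHMT2. It had 33.8, 41.5 and 40.5 CPM in UNC1999 libraries and 19.6, 20.5 and 21.3 CPM in UNC2400 libraries, a log2 fold change of 0.92 ± 0.08 (SE; edgeR adjusted p = 7.658e-08) with no overlap.

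ZNF777, a KRAB gene on chromosome 7, had 41.9, 43.7 and 46.2 CPM in UNC1999 libraries, against 25.3, 26.0 and 23.0 CPM in UNC2400 libraries. It rose by 0.82 ± 0.06 on the log2 scale (SE; edgeR adjusted p = 3.351e-08). The other 6 of the 10 largest rises were ZNF280B, ZNF449, ZNF239, ZNF75D, ZNF71 and ZNF516, with log2 fold changes of 0.82, 0.79, 0.78, 0.74, 0.73 and 0.73 and no overlap between the groups. ZNF516, a factor known for activating brown fat genes, had 21.2, 25.1 and 22.9 CPM in UNC1999 libraries and 13.8, 14.2 and 13.7 CPM in UNC2400 libraries.

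ZNF423 had the largest fall. It encodes a many-fingered cofactor of SMAD and EBF proteins, and had 35.4, 25.01 and 28.6 CPM in UNC1999 libraries, against 43.4, 44.6 and 43.1 CPM in UNC2400 libraries. The groups did not overlap, with UNC1999 replicate 1 nearest to the UNC2400 libraries, and the log2 fold change was -0.56 ± 0.09 (SE; edgeR adjusted p = 5.174e-05). With the offsets it was 0.03. ZNF138, a KRAB gene on chromosome 7, had 32.0, 32.2 and 30.6 CPM in UNC1999 libraries and 44.6, 49.6 and 44.97 CPM in UNC2400 libraries. It fell by 0.56 ± 0.06 on the log2 scale (SE; edgeR adjusted p = 9.398e-07).

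ZNF770 had 103, 102 and 109 CPM in UNC1999 libraries and 147, 145 and 152 CPM in UNC2400 libraries, with no overlap and a log2 fold change of -0.50 ± 0.05 (SE; edgeR adjusted p = 4.432e-07). In GENCODE 31.9% of its exon bases also lie in exons of AC114546.3, and the strand setting of the counting is not given, so reads of that gene may be among its counts. ZNF827, whose protein brings the NuRD complex to telomeres in cells that lengthen them by recombination, had 36.9, 33.1 and 31.2 CPM in UNC1999 libraries and 50.1, 45.9 and 46.4 CPM in UNC2400 libraries. Its values did not overlap between the groups, and it fell by 0.49 ± 0.07 on the log2 scale (SE; edgeR adjusted p = 9.526e-06). ZNF560 had 13.6, 14.5 and 14.0 CPM in UNC1999 libraries and 16.98, 20.04 and 18.3 CPM in UNC2400 libraries, a log2 fold change of -0.40 ± 0.08. The other 5 of the 10 largest falls were ZNF878, ZNF682, ZNF512B, ZNF778 and ZNF532, with log2 fold changes of -0.55, -0.52, -0.47, -0.45 and -0.39, all without overlap.

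**Figure D3:**
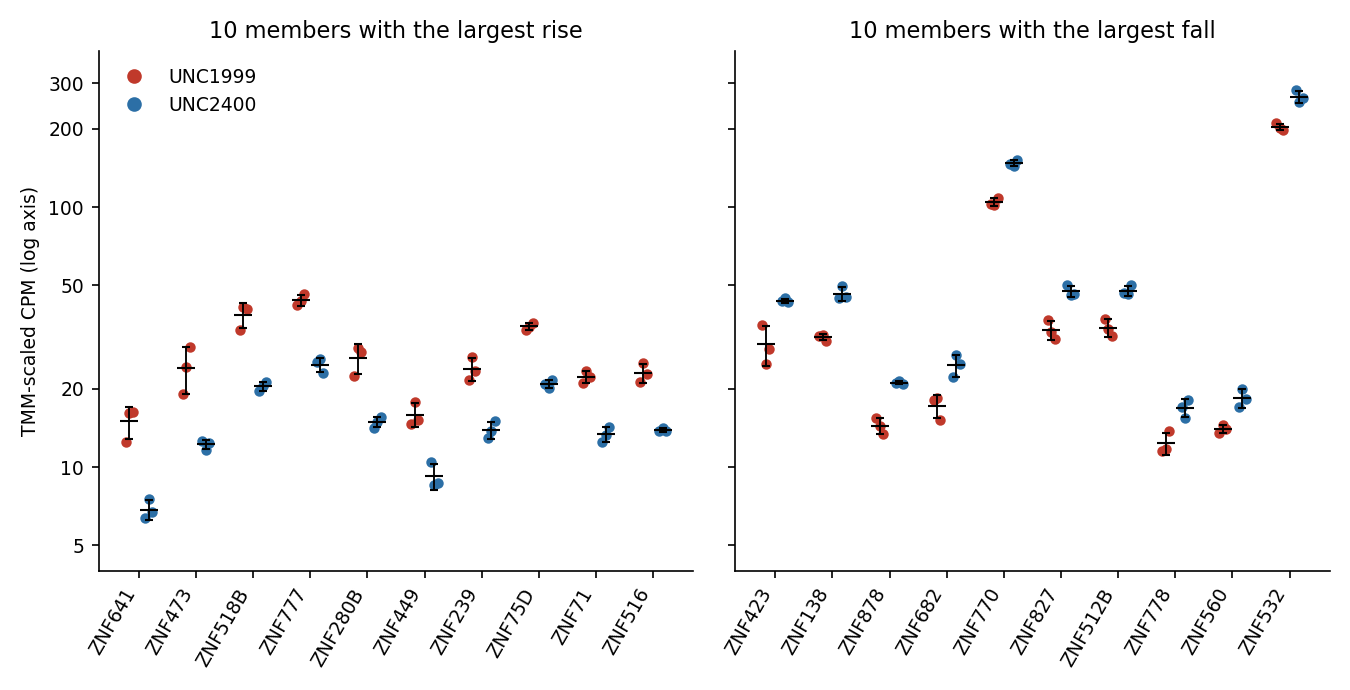
Level of the 10 members with the largest rise and the 10 with the largest fall in each library (y axis, TMM-scaled CPM, log scale), UNC1999 libraries left of UNC2400 libraries for each gene, with the mean and SD of 3 libraries as bars. Every UNC1999 point of ZNF641 (12.5 to 16.2) lies above its UNC2400 points (6.35 to 7.52), and every UNC1999 point of ZNF423 (25.01 to 35.4) below its UNC2400 points (43.1 to 44.6).

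The promoters of 2 members with large rises and 2 with large falls are shown because CG dinucleotides are the letters that separate the CG-rich promoters typical of Polycomb targets from others. Each is the 250 bases before the start of the gene in RefSeq (GRCh38.p14, minus strand in all 4), 5′ to 3′, with CG in capitals, and the genes are the first of each direction with a RefSeq entry and no annotated exon in the window. ZNF518B (chr4:10457427-10457676) has 26 CG and ZNF75D (chrX:135296040-135296289) has 6, and both rose. ZNF423 (chr16:49664325-49664574) has 8 CG and ZNF770 (chr15:34988288-34988537) has 21, and both fell.
ZNF518B: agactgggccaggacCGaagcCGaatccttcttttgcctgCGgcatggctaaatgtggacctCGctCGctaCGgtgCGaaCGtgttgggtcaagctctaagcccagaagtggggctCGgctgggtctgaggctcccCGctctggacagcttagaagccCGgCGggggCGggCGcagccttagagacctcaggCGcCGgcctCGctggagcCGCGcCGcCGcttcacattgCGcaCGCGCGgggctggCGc
ZNF75D: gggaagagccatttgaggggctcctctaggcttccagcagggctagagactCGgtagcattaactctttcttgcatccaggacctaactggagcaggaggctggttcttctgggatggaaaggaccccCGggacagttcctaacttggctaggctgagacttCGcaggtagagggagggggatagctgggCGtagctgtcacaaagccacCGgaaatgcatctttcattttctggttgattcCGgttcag
ZNF423: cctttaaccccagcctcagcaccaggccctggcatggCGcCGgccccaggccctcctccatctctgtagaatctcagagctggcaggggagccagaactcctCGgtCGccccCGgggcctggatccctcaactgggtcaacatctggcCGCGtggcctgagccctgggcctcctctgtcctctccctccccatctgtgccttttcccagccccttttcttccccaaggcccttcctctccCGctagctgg
ZNF770: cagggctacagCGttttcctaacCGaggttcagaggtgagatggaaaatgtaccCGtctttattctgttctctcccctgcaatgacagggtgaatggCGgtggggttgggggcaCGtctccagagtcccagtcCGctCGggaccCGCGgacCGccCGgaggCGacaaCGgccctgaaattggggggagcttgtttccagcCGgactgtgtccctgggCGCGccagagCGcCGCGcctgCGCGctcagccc
Both directions thus held a window with many CG and a window with few. A gene can have other starts, and whether these starts were the ones used in the cells was not tested. RefSeq promoters were found for 276 of the 324 members. The median was 18 CG in the 173 matched members called higher, 17 in the 23 called lower and 19 in the 80 called neither, and 11 over all 27305 promoters in the table. At least 10 CG were present in 91.3% of matched members called higher, 78.3% of those called lower and 83.8% of those called neither, and in 51.9% of all promoters. The promoters in the table are not limited to genes expressed here. Of the 17272 other genes tested, 10882 had a promoter in it, with a median of 20 CG and at least 10 CG in 81.6%. This match is too incomplete for a comparison, and the members are not called CG-rich from these values.

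Of 28 members known from chromatin complexes and transcription, 11 were higher (39.3%), 6 were lower (21.4%) and 11 were neither, with a median log2 fold change of 0.08. Of all tested genes at 10 CPM or more 31.1% were higher and 33.9% lower, so these shares are not far from the background. ZNF143, an activator of small nuclear RNA and protein-coding promoters, had 35.5, 40.8 and 42.2 CPM in UNC1999 libraries and 29.9, 31.0 and 32.6 CPM in UNC2400 libraries, a log2 fold change of 0.34 ± 0.07 (SE; edgeR adjusted p = 0.00045). Its paralog ZNF76 had a log2 fold change of 0.23 and ZNF148, a binder of GC-rich promoters, one of 0.35, both higher. The call of ZNF76 was lost without UNC1999 replicate 3, UNC2400 replicate 1 or UNC2400 replicate 3, with log2 fold changes of 0.19, 0.24 and 0.16, with DESeq2 (0.22) and with no low-count filter (0.21).

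The paralogs ZNF608 and ZNF609 went opposite ways. ZNF608 had 67.7, 73.4 and 71.0 CPM in UNC1999 libraries and 58.2, 50.03 and 51.2 CPM in UNC2400 libraries, and rose by 0.41 ± 0.06 on the log2 scale (SE; edgeR adjusted p = 2.388e-05). ZNF609, whose product works with the cohesin loader NIPBL, had 109, 95.4 and 97.5 CPM in UNC1999 libraries and 133, 119 and 130 CPM in UNC2400 libraries, and fell by 0.34 ± 0.06 (SE; edgeR adjusted p = 0.0001713). Neither gene's groups overlapped, and with the offsets ZNF609 stood at 0.07. A split of the same kind was seen among the 3 zinc finger partners of the reader protein ZMYND8. ZNF592 and ZNF687 were higher, with log2 fold changes of 0.24 and 0.18, and ZNF532 was lower, at -0.39 ± 0.05 (SE; edgeR adjusted p = 1.363e-05). ZNF532 had 211, 202 and 199 CPM in UNC1999 libraries and 282, 255 and 263 CPM in UNC2400 libraries. ZNF687 stood at -0.12 with the offsets, and its call was lost without UNC1999 replicate 2, UNC1999 replicate 3 or UNC2400 replicate 2 (0.14, 0.15 and 0.14).

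ZNF462, needed for heterochromatin in mouse embryonic stem cells, had 121, 114 and 115 CPM in UNC1999 libraries, against 148, 128 and 131 CPM in UNC2400 libraries, a log2 fold change of -0.22 that became 0.03 with the offsets. ZNF512B fell while its paralog ZNF512 was called neither, at 0.03 with a 95% interval of -0.09 to 0.15; the difference between them was not tested. ZNF131, ZNF384, ZNF395 and ZNF639 were higher, with log2 fold changes of 0.29, 0.23, 0.24 and 0.22. The call of ZNF395 was lost without UNC1999 replicate 3 or UNC2400 replicate 2 (0.16 and 0.18), and that of ZNF639 with the offsets (0.06). Exons of ZNF384, ZNF395 and ZNF512 overlap those of other genes over 31.9%, 34.9% and 31.6% of their bases. The members called neither included ZNF281, a repressor of Nanog in mouse stem cells, ZNF217, which binds the CoREST complex, and ZNF644, which binds the methyltransferases EHMT2 and EHMT1. Their 95% intervals were -0.06 to 0.16, -0.20 to 0.03 and -0.09 to 0.13. With the offsets ZNF281 was lower, at -0.20, and ZNF644 higher, at 0.14.

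Of 13 members with roles in RNA, ribosomes or the spindle, 6 were higher (46.2%), 3 were lower (23.1%) and 4 were neither, and the median log2 fold change was 0.14. With 13 members these shares are not far from the 31.1% and 33.9% of all tested genes at 10 CPM or more. ZNF330, a nucleolar protein gene, had 50.7, 54.4 and 55.1 CPM in UNC1999 libraries and 42.3, 40.2 and 40.1 CPM in UNC2400 libraries, a log2 fold change of 0.39 ± 0.06 (SE; edgeR adjusted p = 1.858e-05). ZNF622, a maturation factor of the large ribosomal subunit, was higher at 0.20, and ZNF259, also known as ZPR1, at 0.22. ZNF318 was the member of this list that rose most, with 49.7, 54.0 and 55.2 CPM in UNC1999 libraries and 38.2, 34.7 and 37.98 CPM in UNC2400 libraries. The 3 that fell were ZNF207, ZNF638 and ZNF326. ZNF207, which carries BUB3 to kinetochores, had 264, 249 and 240 CPM in UNC1999 libraries and 281, 286 and 269 CPM in UNC2400 libraries, a log2 fold change of -0.15 ± 0.05 (SE; edgeR adjusted p = 0.02432). ZNF638, an RNA-binding protein gene, fell by 0.33, and ZNF326, of a complex that links splicing to RNA polymerase, fell by 0.20. The call of ZNF207 was lost without UNC1999 replicate 3, UNC2400 replicate 1 or UNC2400 replicate 2 (-0.14, -0.15 and -0.13). With the offsets the calls of ZNF207, ZNF622 and ZNF638 were lost (-0.14, 0.03 and -0.10). ZNF598, the ubiquitin ligase of collided ribosomes, was called neither, with an interval of -0.08 to 0.13.

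A list of KRAB-type repressors or relatives, several with known transposon or imprint targets, held 15 members. Of these, 10 were higher (66.7%), 1 was lower (6.67%) and 4 were neither, and the median log2 fold change was 0.20. Of all members 63.9% were higher and 8.64% lower, so the list's shares are near those of members in general. Of all tested genes at 10 CPM or more 31.1% were higher and 33.9% lower. ZNF445, a guardian of imprinted loci, had 56.9, 67.3 and 62.3 CPM in UNC1999 libraries and 52.5, 49.1 and 50.8 CPM in UNC2400 libraries, a log2 fold change of 0.29 ± 0.06 (SE; edgeR adjusted p = 0.0006947). ZNF93, a repressor of LINE1 elements, had 67.6, 71.3 and 72.4 CPM in UNC1999 libraries and 58.6, 62.4 and 63.1 CPM in UNC2400 libraries, and rose by 0.20 ± 0.05 (SE; edgeR adjusted p = 0.004197). ZNF91, which represses SVA elements, had 44.3, 47.0 and 47.3 CPM in UNC1999 libraries and 48.6, 48.9 and 47.5 CPM in UNC2400 libraries. It was called neither, with an interval of -0.18 to 0.05.

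ZNF274, which recruits SETDB1 to ZNF genes themselves, was higher at 0.22, with 41.9, 46.5 and 42.7 CPM in UNC1999 libraries and 38.3, 37.4 and 36.9 CPM in UNC2400 libraries. ZNF611 rose most of this list, by 0.73 ± 0.10 on the log2 scale (SE; edgeR adjusted p = 1.118e-05), and ZNF808 rose by 0.54. ZNF649, at 175, 163 and 170 CPM in UNC1999 libraries and 154, 146 and 155 CPM in UNC2400 libraries, was higher at 0.16, but stood at -0.02 with the offsets and lost its call without UNC1999 replicate 1, UNC1999 replicate 3 or UNC2400 replicate 2 (0.11, 0.14 and 0.13) and with no low-count filter (0.14). ZNF141 was the 1 that fell, by 0.19, and without UNC1999 replicate 3 it was not called (-0.16). ZNF765 was higher at 0.18 although its groups overlapped, and lost its call without UNC1999 replicate 2 or 3, without UNC2400 replicate 1 or 2 (0.16, 0.10, 0.13 and 0.20) and with DESeq2 and the offsets (0.17 in each).

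A KRAB core was found by a sequence match in the translated coding transcripts of 197 members and was not found in 120; 7 had no coding sequence read. Of the 197 with a match, 131 were higher, 11 were lower and 55 were neither, with a median log2 fold change of 0.26. Of the 120 without, 72 were higher, 16 were lower and 32 were neither, with a median of 0.24. Of all tested genes at 10 CPM or more 31.1% were higher and 33.9% lower. The match can miss KRAB genes: ZNF180, ZNF202 and ZNF263, on the list of KRAB-type repressors or relatives above, had none. Missed genes would make the groups with and without a match look more alike. The medians were close, no conclusion on the KRAB domain is drawn from this, and the difference was not tested. With the offsets 92 members with a match were higher and 17 lower, and 60 without a match were higher and 11 lower. Members had a median of 10 zinc fingers (0 to 33). The Spearman correlation of finger number with the log2 fold change was -0.03 across 317 members, which share libraries and are not independent.

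Among genes of the KRAB pathway's partners, more were lower than higher. Of 22 corepressor and heterochromatin genes measured, 1 was higher, 15 were lower (68.2%) and 6 were neither, with a median log2 fold change of -0.24. Of all tested genes at 10 CPM or more 33.9% were lower, and of genes other than members at 100 CPM or more 21.5% were higher and 44.4% lower, with a median of -0.09. TRIM28, the KRAB corepressor, had 1021, 898 and 941 CPM in UNC1999 libraries and 1120, 1153 and 1135 CPM in UNC2400 libraries, a log2 fold change of -0.25 ± 0.06 (SE; edgeR adjusted p = 0.00181). DNMT1, the maintenance DNA methyltransferase, had 197, 160 and 171 CPM in UNC1999 libraries and 282, 258 and 263 CPM in UNC2400 libraries, a log2 fold change of -0.61. The NuRD helicase gene CHD3 and the SETDB1 partner gene ATF7IP fell by 0.66 and 0.59. SETDB1 itself, at 0.09, and CBX3, near 0, were called neither, and FAM208A, of the HUSH complex, was the 1 gene that rose, by 0.23.

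Of the 319 members placed by GENCODE, 149 lie on chromosome 19. There 106 were higher, 4 were lower and 39 were neither, with a median log2 fold change of 0.28, and the 4 that fell were ZNF431, ZNF560, ZNF682 and ZNF878. With the offsets 73 members there were higher and 12 lower, and without UNC1999 replicate 2 there were 88 higher and 8 lower. On other chromosomes 98 of 170 members were higher, 23 were lower and 49 were neither, with a median of 0.22. Of 959 other tested genes on chromosome 19, 271 were higher and 232 were lower, and their median was 0.05. ZNF names separated by gaps of at most 250000 bases were joined into runs, and 7 runs held at least 8 members.

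The runs were not alike in their counts. In the run of chromosome 19 from ZNF175 to ZNF331, 28 of 34 members were higher and 0 were lower, with a median log2 fold change of 0.36. In the run from ZNF264 to ZNF324, 26 of 31 were higher and 0 were lower, with a median of 0.32. The run from ZNF146 to ZNF607 had 8 higher and 0 lower of 14, and those from ZNF317 to ZNF562 and from ZNF627 to ZNF791 each had 6 higher and 1 lower of 8. On chromosome 7, 7 of 8 members from ZNF786 to ZNF746 were higher, with a median of 0.40. The run from ZNF101 to ZNF254 stood lowest, with 6 of 21 members higher, 2 lower and 13 neither and a median of 0.04. Of the 959 other tested genes on chromosome 19, 28.3% were higher and 24.2% lower. The 6 of 21 higher in that run thus lay near the share of those genes. With the offsets that run had 4 higher and 3 lower with a median of -0.02, and without UNC1999 replicate 2 it had 5 higher and 4 lower. The offsets left 14 members higher and 3 lower from ZNF264 to ZNF324, 22 higher and 2 lower from ZNF175 to ZNF331, and 3 higher and 1 lower from ZNF627 to ZNF791. The median then was 0.15 from ZNF264 to ZNF324, 0.13 from ZNF627 to ZNF791, 0.14 from ZNF146 to ZNF607 and 0.21 from ZNF317 to ZNF562. Without UNC1999 replicate 2, 25 were higher and 2 lower from ZNF175 to ZNF331.

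Within the run from ZNF101 to ZNF254 the members ranged from -0.52 in ZNF682 to 0.48 in ZNF43. ZNF682 had 18.1, 18.4 and 15.2 CPM in UNC1999 libraries and 22.2, 26.9 and 25.02 CPM in UNC2400 libraries, and its groups did not overlap. The members of the run had a median GC content of 37.2%, the lowest of the 7 runs, and differences between runs were not tested. Genes of a run have near-identical stretches, and how multiply matching reads were counted is not given, so single values within runs are uncertain.

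**Figure D4:**
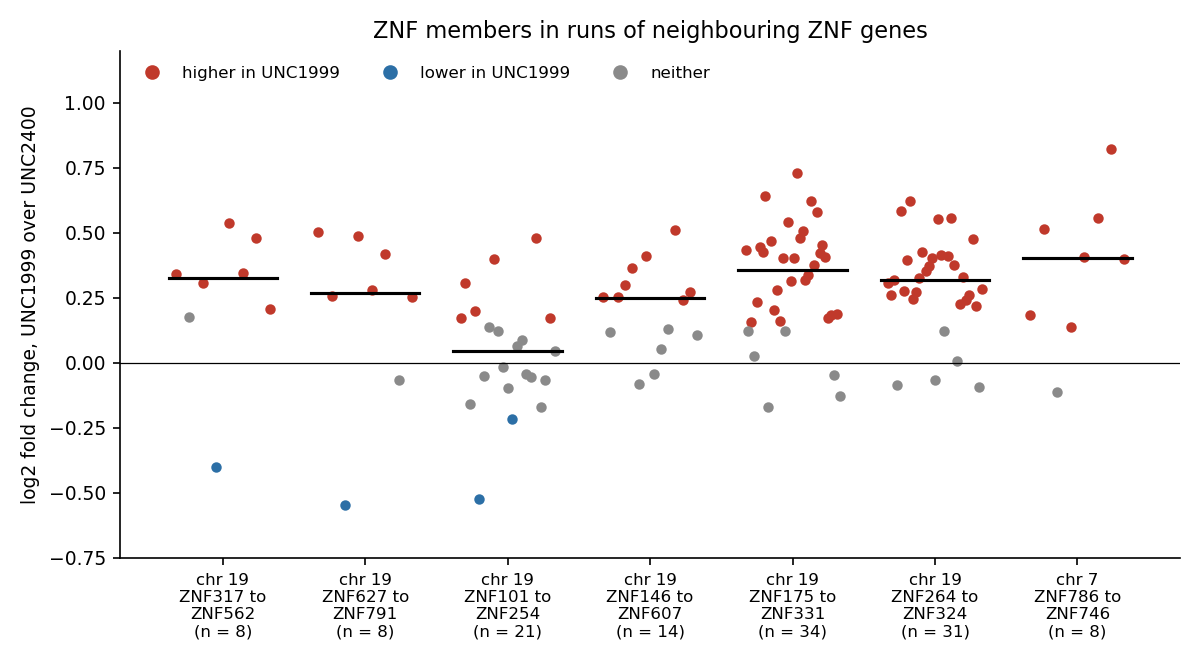
Log2 fold change of UNC1999 over UNC2400 (y axis) for members of the 7 runs of neighbouring ZNF genes (x axis); each point is a member, coloured by its call, and lines are medians. Points of the run from ZNF101 to ZNF254 lie around a median of 0.04, those from ZNF175 to ZNF331 around 0.36.

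Fold changes differed with gene span, among members as among other genes. The Spearman correlation of log2 fold change with genomic span was -0.33 across 319 members and -0.39 across other genes. Members spanning 10 to 20 kb had a median log2 fold change of 0.36, with 64 of 81 higher and 4 lower. Other genes of that span had a median of 0.10, with 36.4% higher and 16.1% lower. Members spanning 50 to 100 kb had a median of 0.11, with 20 of 48 higher and 5 lower. For other genes of that span the median was -0.09, with 19.4% higher and 37.1% lower. The 20 members over 100 kb had a median of -0.11, with 4 higher and 9 lower. Among other genes over 100 kb the median was -0.28, with 9.8% higher and 54.4% lower. In each of the 6 span classes the members' median thus lay above that of other genes. The counts also differed with the count level, which is not per length. Of the 18 members at 100 CPM or more, 5 were higher, 7 were lower and 6 were neither, with a median of -0.03. Of the 2230 other genes at that level 21.5% were higher and 44.4% were lower, with a median of -0.09, so the members' 27.8% and 38.9% lay near that background. ZNF146, whose protein consists almost wholly of fingers, had the highest level among members per kb of exon, at 75.3 CPM per kb over all libraries. It had 336, 334 and 349 CPM in UNC1999 libraries and 279, 285 and 291 CPM in UNC2400 libraries, a log2 fold change of 0.25 ± 0.05 (SE; edgeR adjusted p = 0.0004411) that fell short of the threshold with the offsets (0.13).

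**Figure D5:**
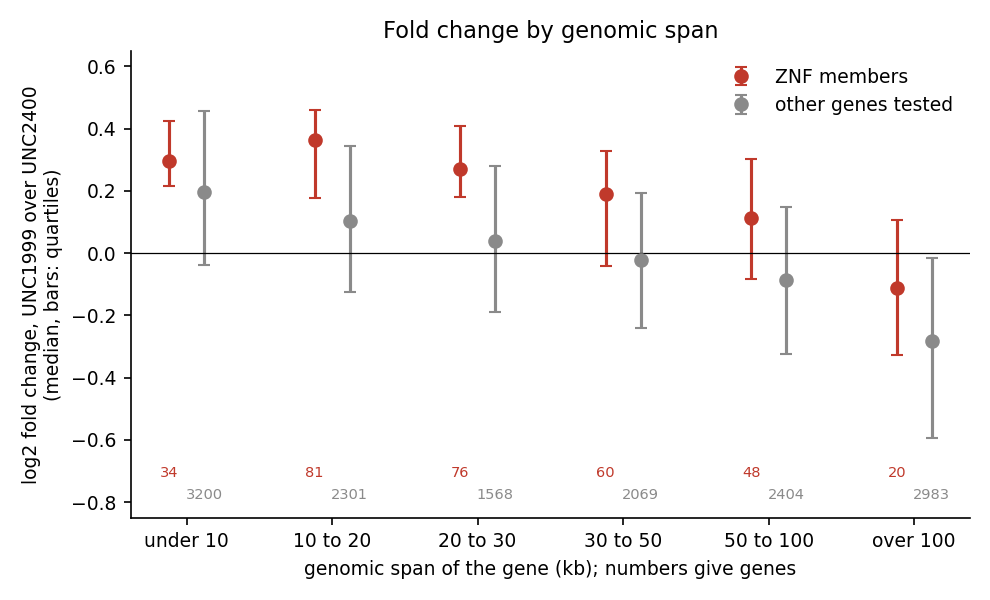
Median log2 fold change of UNC1999 over UNC2400 (y axis, bars give quartiles) by genomic span of the gene (x axis, kb) for ZNF members and other genes tested. The members' median is 0.36 at 10 to 20 kb and -0.11 over 100 kb, above that of other genes (0.10 and -0.28).

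The 89 members called neither had 95% intervals between -0.39 and 0.42 in all, so each of the 89 lay within 0.5 of 0; 47 had a log2 fold change above 0 and 42 below. ZNF398 had one of the narrowest intervals, -0.21 to -0.01, with 132, 127 and 131 CPM in UNC1999 libraries and 142, 137 and 142 CPM in UNC2400 libraries. Its groups did not overlap, and its edgeR adjusted p was 0.06029; without UNC1999 replicate 1 it was lower, at -0.14, and so was ZNF544, at -0.13. ZNF544 and ZNF496 had intervals of -0.19 to 0.01 and -0.02 to 0.19.

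In the authors' deposited table all 324 members were listed, 199 as higher and 29 as lower at an adjusted p under 0.05, with a median log2 fold change of 0.23. Of all genes that the authors' deposited table lists, 21.3% were higher and 22.7% lower.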

How the data were processed

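Poly(A)-selected libraries were made from 200 ng of RNA with a kit that marks strand, per the labels. The deposited counts are whole numbers per gene name that the authors left without normalization. Per the submitters' processing notes the build was hg19, and the tools were featureCounts, Subread 1.5.0, TopHat2 2.0.13 and Trim Galore 0.4.0. Not given in the sources used are the annotation, the strand setting and how multiply matching reads were counted. The authors also deposited log2 values marked as normalized and batch-corrected, which were not used. The authors' deposited comparison table gives p-values, test scores and log2 fold changes, with column names that limma uses, per the file headers.

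Counts were tested in R 4.3.3 by the two-sided quasi-likelihood F test of edgeR 4.0.16, with TMM factors, no covariate beside group and the default low-count filter, which kept 17596 genes and all 324 members. Benjamini-Hochberg adjustment ran over all genes tested, with a threshold of 0.05, and fold changes are UNC1999 over UNC2400. The table holds 26 names turned into dates, which stayed in the tests. Per-library medians used log2 of CPM plus 0.5. Gene span, exon length, GC content and position order came from GENCODE release 29, matched by name for 319 members; it is of another build than the counts, so none of its coordinates are given. Fingers and KRAB cores were found by pattern matching in translated GENCODE transcripts. Promoters came from RefSeq.

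The members and lists were chosen with earlier results of these data known. Named members are the 10 largest rises and falls without overlap, the 5 most abundant, members of 3 role lists, those at the floor and the 4 narrowest intervals among uncalled members. Alternatives were RLE and upper-quartile scaling, no low-count filter, DESeq2 1.42.0, limma-voom (limma 3.58.1), a replicate block, offsets for exon length, span and GC content, leaving out each library, and floors of 5 and 20 CPM. The fit was tested on simulated data. Offsets were fitted per library on deviations from each gene's mean over all libraries, and genes without a GENCODE match got none.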

Additional observations from a re-analysis of the deposited data

How the results depend on the processing

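The members called higher numbered 202 with RLE scaling, 211 with upper-quartile scaling, 188 with no low-count filter, 193 with DESeq2, 206 with limma-voom and 156 with the length, span and GC offsets. With floors of 5 and 20 CPM, which change how many genes are members, they were 246 and 132. The median log2 fold change of members was then 0.25 and 0.23. Of all genes tested, 4714 were higher in the main fit, 4498 with RLE scaling and 4926 with upper-quartile scaling. These numbers were 4304 with no low-count filter, 4057 with DESeq2, 4669 with limma-voom and 4039 with the offsets. With the offsets the median log2 fold change of members was 0.15, 29 members were lower, and 145 of those called higher and 18 of those called lower kept their call, while 11 others became higher and 11 others lower. Calls in opposite directions were made for ZNF407, lower at -0.24 and higher at 0.28 with the offsets and named after its values were seen, and for ZNF687. In every setting that kept all members, 130 remained higher and 15 remained lower. Leaving out each library in turn gave 171 to 207 members higher, 24 to 32 lower and a median of 0.22 to 0.27, with 3642 to 4925 of all genes higher and 3951 to 5151 lower. Among the 79 members named by the rule, the offsets turned the direction of ZNF281 (-0.20), ZNF423 (0.031), ZNF462 (0.032), ZNF609 (0.068), ZNF649 (-0.0226) and ZNF687 (-0.12); the cause was not tested. On chromosome 19, 73 members were higher with the offsets and 88 without UNC1999 replicate 2, against 106 in the main fit. There 12 were lower with the offsets and 8 without UNC1999 replicate 2, against 4.

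Deviations of same-numbered libraries correlated at 0.02, 0.08 and 0.12, and those of different-numbered libraries at -0.14 to 0.06. These values do not settle whether the numbers pair the samples, and the main fit did not use them. With the replicate number as a block, 210 members were higher and 28 lower, and 4867 and 4695 of all genes. The main fit called 4714 of all genes higher and 4554 lower. Scaling holds the bulk of genes near 0, so a change common to nearly all genes could not be detected.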

Other observations

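Zinc finger genes outside the members were counted in the same fit, with no test of any set. Of 161 tested ZNF genes under the floor of 10 CPM, 74 were higher in UNC1999 cells and 9 were lower, with a median log2 fold change of 0.28. Of 18 ZFP genes 11 were higher and 0 were lower (median 0.36). Of 17 ZSCAN genes, whose SCAN domain lets the proteins pair, 11 were higher and 1 was lower (median 0.33). Of 7 ZKSCAN genes, which encode both SCAN and KRAB domains, 6 were higher and 0 were lower (median 0.35). Of 40 ZBTB genes, whose BTB domain recruits corepressors, 23 were higher and 3 were lower (median 0.27). These family counts include genes under 10 CPM. Among all genes tested, at any level, 26.8% were higher and 25.9% lower. The shares among tested genes under 10 CPM alone are not given here. At 10 CPM or more, 8 of 9 ZFP, 7 of 10 ZSCAN, 6 of 7 ZKSCAN and 22 of 29 ZBTB genes were higher. At that level 0, 1, 0 and 3 of them were lower. Of all tested genes at 10 CPM or more 31.1% were higher and 33.9% lower. More genes higher than lower was thus not particular to ZNF names.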
